A study of Bombus terrestris with 70 samples.

Results

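The fat body of old Bombus terrestris queens was compared between queens whose eggs were taken away and queens whose eggs were taken away and put back. The comparison used 10 of the 70 samples that the labels list, chosen by their tissue, treatment and time labels and not by any measured value. They were 6 egg removal libraries (replicates 1 to 6) and 4 control libraries (replicates 1, 2, 3 and 5), all collected when 60% of the cohort had died (TP2). Replicates 4 and 6 of the control are listed in the labels, had no column in the table and were not analysed here.

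The study sequenced mRNA from the brain, fat body and ovary of queens of this bumble bee. Per the labels, the egg removal treatment was meant to raise the costs of reproduction, and replacing the eggs gave control queens the same disturbance. Queens of both treatments were also taken earlier, when 10% of the cohort had died (TP1), with 6 fat body libraries in each treatment. A library held the RNA of 1 tissue from 1 queen, so the replicates were separate queens. The limma p-values below rest on a spread between queens pooled over the 4 groups of a tissue, early ones included. In the fat body the median SD within a group on the log2 scale was 0.489 in late control (n = 4) and 0.423 in late egg removal (n = 6). At TP1 it was lower, at 0.345 in control and 0.337 in egg removal (n = 6 each), so the pooled spread is below that of the late controls for many genes. No genotype, strain, colony or age in days is given in the labels, and whether libraries of different tissues with the same number came from the same queen is not stated.

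The fat body of insects is the tissue of storage, intermediary metabolism and much of the immune response, and it serves some of the roles that the liver and adipose tissue serve in vertebrates. In egg-laying bee queens it makes vitellogenin, the yolk precursor, which is carried in the haemolymph to the growing oocytes. Juvenile hormone, ecdysteroids and nutrient signals are known to act on it, and it secretes antimicrobial peptides after infection. Most genes of the table carry only a LOC identifier, and the gene table used here holds no product names, so what those genes encode is not stated.

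The values, deposited as normalized read counts, are a signal per gene, so a value is a level within the fat body table and carries no correction for transcript length. Estimated depth averaged 36.6 ± 16.6 M reads (SD, n = 4) for control and 39.6 ± 15.8 M (SD, n = 6) for egg removal, with the lowest value, 12.1 M, in control replicate 1. The first principal component of the 10 libraries held 39.9% of the variance. Control replicates 1 and 3 lay lowest on it (-80.1 and -50.8), and egg removal replicate 3 lay highest (95.8). Control replicates 2 and 5 (-12.3 and -7.21) lay beside egg removal replicates 5 and 6 (-17.4 and -18.4), so the groups overlapped on this axis. Control replicate 2 stood apart on the second component, at -87.4, where the other 9 libraries lay between -4.61 and 22.9.

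Cell type markers could not be identified by name, so the tissue label was checked with genes chosen by their levels in the other tables. Of 100 genes at least 100 times higher in the ovary table than in early fat body and brain, none passed the test between the treatments. Over all genes tested 4.6% did. None of the 100 was at 0 in all 10 libraries. Their summed level was 18600, 8130, 13300 and 2830 in control replicates 1, 2, 3 and 5, and 4370 to 9630 in egg removal. Of 98 brain-high genes tested, 3 were called lower in egg removal (adjusted p under 0.05) and 0 higher, near the 2.29% called lower over all genes, with sums of 5260 to 11500 in control and 2900 to 6690 in egg removal. Of the 9 fat-body-high genes 1 was called higher and 0 lower, against 2.31% and 2.29% over all genes, and 9 genes are too few to compare shares. Together the 9 took 0.899% to 4.46% of the total in control and 1.7% to 11.8% in egg removal. The part of other tissue in the results below was not tested. In whole tissue, fewer cells of a type and less RNA per cell cannot be told apart.

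Late egg removal queens had higher levels of a few percent of fat body transcripts, and lower levels of a like number. The transcript with the highest mean over the 10 libraries was among the higher ones. A gene was called where its adjusted p was under 0.05 in a limma fit of log2(value + 1) over all 4 fat body groups, with Benjamini-Hochberg adjustment over the 10383 genes tested. The calls numbered 478, or 4.6% of the genes tested. Of these, egg removal was higher for 240 (2.31%) and lower for 238 (2.29%). The unadjusted p was under 0.05 for 2563 genes, against 519 if none differed. The count depended on single queens and on the fit. It was 12 without control replicate 1, 220 without control replicate 2, 124 without control replicate 3 and 1373 without control replicate 5. It was 0 in a fit of the 10 libraries alone, where 1781 genes had an unadjusted p under 0.05 and the smallest adjusted p was 0.0816.

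The median size of the called differences was 1.20 on the log2 scale. Over all genes tested it was 0.34, with a median standard error of 0.27, and a larger size among the called genes follows from the test that chose them. A log2 difference of at least 1 was found for 134 of the called higher and 161 of the called lower genes, and one of at least 2 for 32 and 55. The split between the directions moved with the scaling. When every library was given the same total, 72 called genes were higher and 303 lower, and the median over all genes moved by -0.27 on the log2 scale. Leaving LOC100650436, the gene with the highest mean over the 10 libraries, out of that total gave 81 higher and 96 lower, with a median shift of -0.09.

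**Figure D1:**
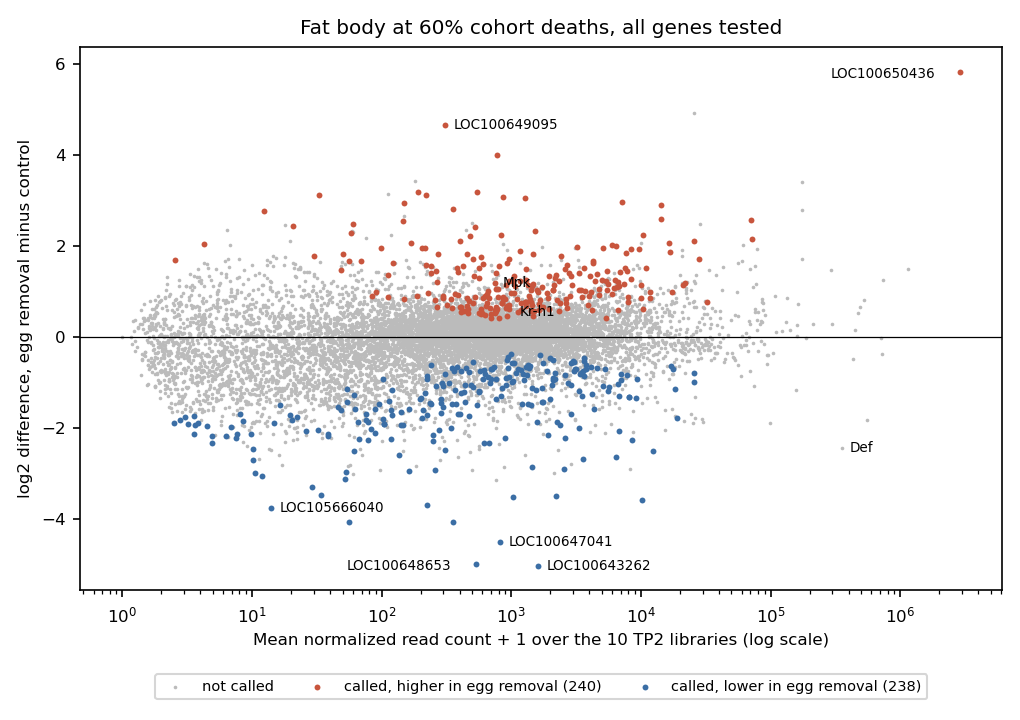
Each point is 1 of the 10383 genes tested, with its mean normalized read count + 1 over the 10 late libraries on the x axis (log scale) and its log2 difference, egg removal minus control, on the y axis. Red points are the 240 called higher and blue points the 238 called lower. LOC100650436 lies farthest up and to the right at 5.82, while called genes of low level lie mostly below 0. The mean on the x axis includes the libraries compared, so it is not independent of the difference.

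Called genes were also counted by level, the mean over the same 10 late libraries that were compared. A difference between the treatments thus enters the level itself, so the split of the directions over the classes partly follows from this choice. Among the 1003 genes with a mean under 10, 2 were called higher and 21 lower. Among the 1716 genes between 10 and 100, 13 were called higher and 33 lower. Between 100 and 1000 the numbers were 100 and 90, and between 1000 and 10000 they were 107 and 86. Of the 426 genes with a mean over 10000, 18 were called higher and 8 lower. The share called rose from 2.29% in the lowest class to 6.69% between 1000 and 10000, and was 6.1% in the highest.

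For 340 of the genes tested (3.27%) the groups did not overlap. In 132 of these every egg removal library was above every control, and in 208 every one was below. Of the called genes, 83 of the 240 higher and 120 of the 238 lower kept the groups apart in this way. Which queens caused the overlap was uneven. Control replicate 5 lay inside the egg removal range for 240 of the 478 called genes (50.2%), whereas control replicates 1, 2 and 3 did so for 7, 33 and 30. On the other side, egg removal replicates 5 and 6 lay inside the control range for 151 (31.6%) and 165 (34.5%), and replicates 1 to 4 for 32, 57, 29 and 35. Over all genes tested, control replicate 5 was also the library most often inside the other group's range, at 80.2%.

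**Figure D2:**
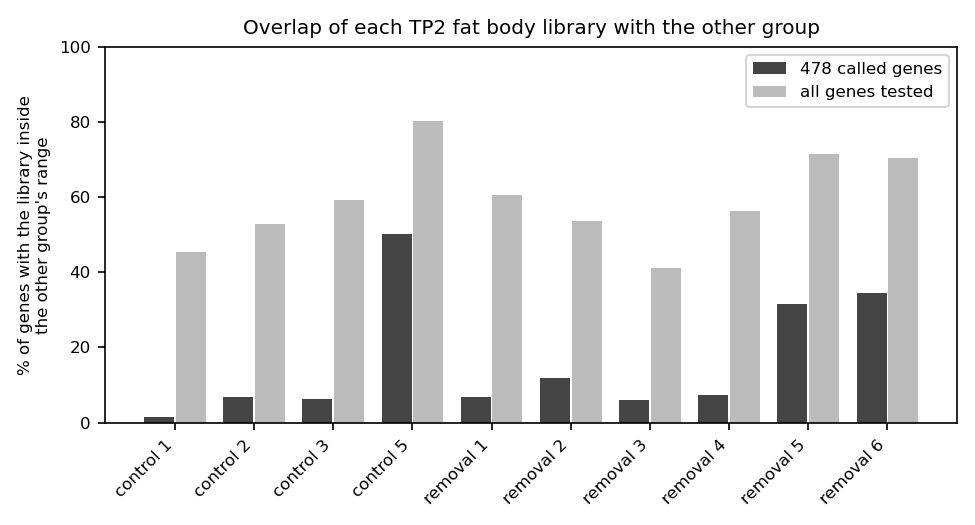
Bars give, for each of the 10 late fat body libraries, the percent of genes for which that library lay inside the range of the other treatment, over the 478 called genes (dark) and all genes tested (light). Control replicate 5 (50.2%) and egg removal replicates 5 and 6 (31.6% and 34.5%) stand above the other 7 libraries for the called genes.

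LOC100650436 had the highest mean over the 10 late libraries and the smallest p. It ranked first through the egg removal libraries. In the controls its mean of 361967 was below those of LOC100642443 (1048750), LOC100651094 (842427) and Def (618492), among others. The normalized read count of LOC100650436 was 11430, 70360, 31170 and 1335000 in control replicates 1, 2, 3 and 5. In egg removal replicates 1 to 6 it was 4724000, 5161000, 5943000, 6382000, 2176000 and 3179000. Every egg removal queen was above every control queen, and control replicate 5 was the control nearest to them. The log2 difference was 5.82 (SE 0.84, limma adjusted p = 0.00653), and an exact two-sided permutation test over the 10 libraries gave p = 0.00476. This is the smallest that its 210 assignments allow, it follows from the groups being apart, and it is not adjusted for the choice of this gene among all those tested. The group means differed 12.7-fold, at 4594090 ± 1625020 (SD, n = 6) against 361967 ± 649092 (SD, n = 4). This 1 gene made up 7.06% to 18.9% of the total in egg removal, and 0.0473%, 0.157%, 0.129% and 4.73% in the 4 controls. The difference was 7.20 without control replicate 5 and 4.91 without control replicate 1.

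Beside it, 30 more genes were singled out by p, size, level or symbol. Of the 31, 24 were called, 12 in each direction, and 19 of the 24 kept the groups apart. Most of the 31 were picked from the called genes by smallest p or largest size, so these counts follow from the choice. Over all genes tested 4.6% were called, and the groups did not overlap for 3.27%. None of the 24 turned its direction under the 20 alternatives computed for each gene. For the 19 with the groups apart, leaving out 1 library could not turn it. The fit of the 10 libraries alone, the low-value filters and the weights per group leave the log2 difference as it is, so this result says little. All 24 lost their call in the fit of the 10 libraries alone. Without control replicate 1, 10 of them were still called, and 14 were not. Without control replicate 5 all 24 were called.

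Among the higher genes, LOC100647937 had 2252, 1049, 3172 and 3337 in the controls and 9679, 6889, 9167, 10470, 7493 and 10480 in egg removal. The lowest egg removal queen was thus well above the highest control. The log2 difference was 1.99 (SE 0.31, adjusted p = 0.00701), a 3.68-fold difference in means. LOC100648724 had 437, 308.5, 408.4 and 485.8 in the controls, against 871, 826.5, 927.6, 978.4, 640.1 and 710.9. Its groups were apart and narrow, and its log2 difference was 1.01 (SE 0.15, adjusted p = 0.00701). It was not called under either scaling to the same total. LOC100649700 had 3022, 2445, 4062 and 4690 in the controls and 8574, 8668, 7884, 6083, 8063 and 9942 in egg removal. Egg removal replicate 4 was the lowest of its group here, but still above all controls, and the log2 difference was 1.24 (SE 0.22).

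LOC100650592 had 3089, 10650, 2565 and 10080 in control replicates 1, 2, 3 and 5. Its 6 egg removal values were 19500, 25350, 22970, 35160, 19650 and 16740. The controls fell into a low and a higher pair, both below all egg removal queens, and the log2 difference was 2.06 (SE 0.36, adjusted p = 0.00763). LOC100651255 had 41.86, 53.43, 59.45 and 64.74 in the controls and 147.8, 83.71, 224.7, 183.4, 113.5 and 130.9 in egg removal. The controls were close together and the egg removal queens were more spread, and the log2 difference was 1.36 (SE 0.24). LOC100649112 had 364.3, 377.9, 653.1 and 1347 in the controls and 1804, 1588, 2349, 1388, 1191 and 1862 in egg removal. Here control replicate 5 was above egg removal replicate 5, so the groups overlapped, and the log2 difference was 1.49 (SE 0.26). LOC100649700 and these 3 genes were among those not called without control replicate 1 (adjusted p from 0.0509 to 0.054).

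Some higher genes were near the bottom of the scale in most controls. LOC100649095 had 15.94, 0.9075, 9.327 and 135.3 in the controls, and 363.1, 351.4, 1216, 676, 157.3 and 141.9 in egg removal. Control replicate 5 reached just below the lowest egg removal queen, while the other controls were far under it. The log2 difference was 4.65 (SE 0.78, adjusted p = 0.00761). LOC110119460 had 9.966, 26.23, 16.33 and 101.2 in the controls and 240.4, 173.6, 78.17, 567.6, 350 and 324.4 in egg removal. Control replicate 5 lay above egg removal replicate 3, and the log2 difference was 3.18 (SE 0.54). LOC100652071 had 11.96, 11.77, 11.08 and 35.31 in the controls and 104.5, 44.64, 88.8, 86.34, 129.6 and 49.92 in egg removal. The groups were apart, and the log2 difference was 2.27 (SE 0.40). LOC100647271 had 17.94, 9.975, 118.2 and 328.7 in the controls and 919.1, 1034, 3690, 950.3, 467.8 and 234.5 in egg removal. Only egg removal replicate 6 was below control replicate 5, and the log2 difference was 3.99 (SE 0.72, adjusted p = 0.0081). LOC110119460, LOC100652071 and LOC100647271 were not called without control replicate 1.

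**Figure D3:**
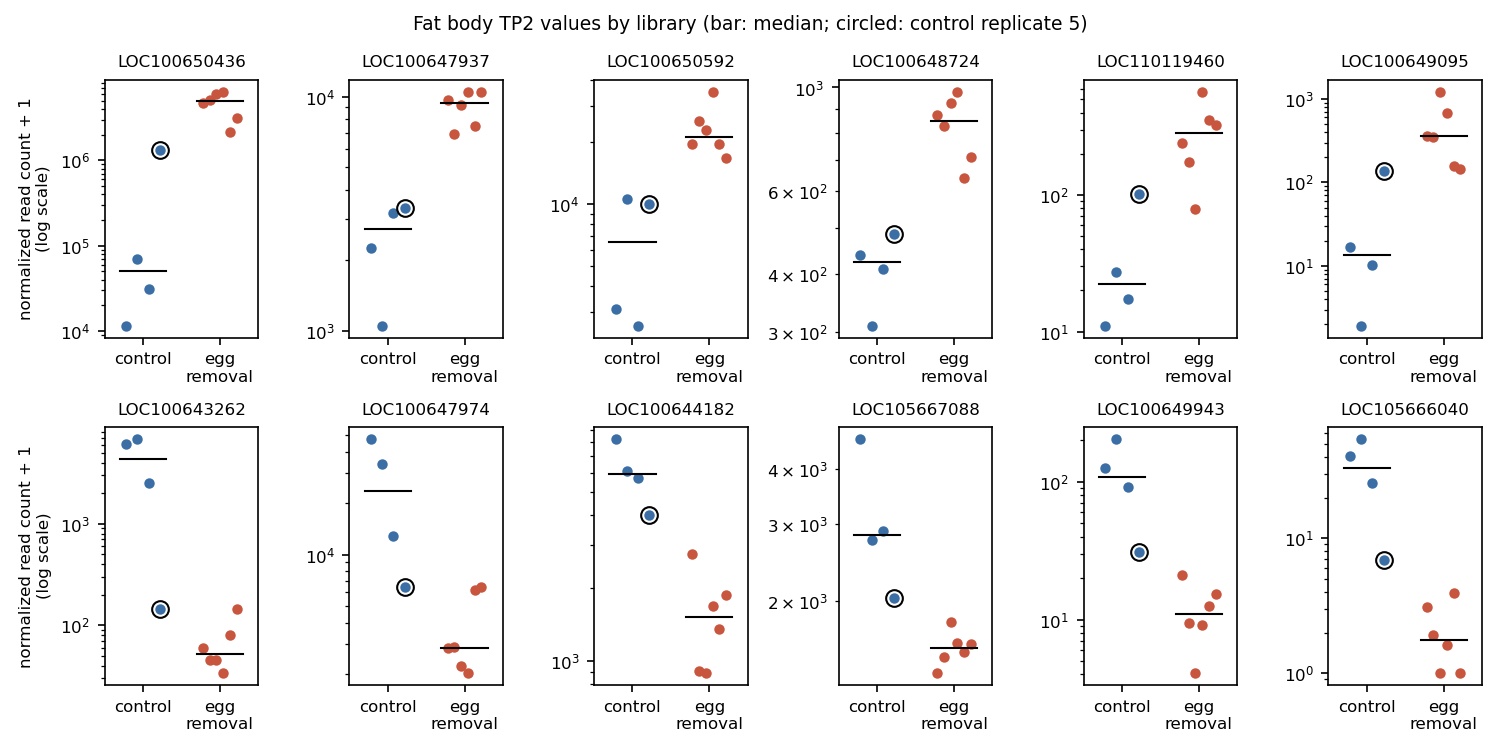
Points are the normalized read counts + 1 (log scale) of 12 called genes in the 4 control (blue) and 6 egg removal (red) late fat body libraries, with bars at the medians and control replicate 5 circled. In the upper row egg removal was higher and in the lower row lower, and control replicate 5 was the control nearest to egg removal for 11 of the 12 genes, the exception being LOC100650592.

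The largest lower difference was that of LOC100643262. It had 6115, 6828, 2536 and 143.7 in control replicates 1, 2, 3 and 5, and 58.29, 44.92, 44.92, 32.64, 79.89 and 142 in egg removal. Control replicate 5 was just above the highest egg removal queen, and the other controls were far above it. The log2 difference was -5.03 (SE 0.80, adjusted p = 0.00734), and it was -6.29 without control replicate 5. LOC100648653 had 339.2, 569.6, 3691 and 424.3 in the controls and 31.29, 52.22, 3.176, 1.295, 77.48 and 126.7 in egg removal. The groups were apart, and control replicate 3 was far above the other controls. The log2 difference was -4.99 (SE 1.19, adjusted p = 0.0245), and it was not called in 7 of the 20 alternatives. LOC100647041 had 1967, 5545, 465.9 and 50.43 in the controls and 56.07, 32.63, 13.86, 16.93, 46.48 and 37.81 in egg removal. Control replicate 5 lay within the egg removal range, the log2 difference was -4.51 (SE 1.08, adjusted p = 0.025), and the call was lost in 8 of the 20. Both genes lost their call when control replicate 1, 2 or 3, or egg removal replicate 3 or 4, was left out.

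Other lower genes had smaller differences with tighter groups. LOC100644182 had 8256, 6113, 5681 and 4018 in the controls and 2751, 910.3, 887.7, 1680, 1359 and 1876 in egg removal. All controls were above all egg removal queens, and the log2 difference was -2.0 (SE 0.33, adjusted p = 0.00761). LOC105667088 had 4694, 2760, 2888 and 2035 in the controls and 1365, 1486, 1788, 1599, 1524 and 1594 in egg removal. The egg removal queens differed little among themselves, and the log2 difference was -0.93 (SE 0.16). LOC100647974 had 47600, 34040, 12930 and 6473 in the controls and 2833, 2868, 2221, 2015, 6188 and 6448 in egg removal. Control replicate 5 was barely above egg removal replicates 5 and 6, and the log2 difference was -2.51 (SE 0.45).

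LOC100647951 had 1961, 1122, 1563 and 1204 in the controls and 795, 772.6, 573.4, 551.1, 834.9 and 822.1 in egg removal. LOC100651566 had 1712, 934.6, 1685 and 789.6 in the controls and 475.5, 572.6, 509.1, 525.3, 658.4 and 598.7 in egg removal. Both kept the groups apart, with log2 differences of -1.0 (SE 0.18) and -1.12 (SE 0.21). LOC100650982 had 101.6, 149.5, 115.4 and 54.97 in the controls and 31.71, 25.14, 30.84, 33.31, 43.62 and 31.1 in egg removal. Its groups were apart as well, and its log2 difference was -1.59 (SE 0.28). LOC100647974, LOC100647951 and LOC100651566 were not called without control replicate 1, and LOC100647951 was not called either with the libraries scaled to the same total without LOC100650436.

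Lower genes also included transcripts that were close to 0 in egg removal queens. LOC105666040 had 39.94, 53.4, 24.57 and 5.881 in the controls and 2.108, 0.9342, 0, 0.6246, 2.929 and 0 in egg removal. The groups were apart, and egg removal replicates 3 and 6 were listed at 0. Its log2 difference was -3.77 (SE 0.63, adjusted p = 0.00761), with a range from -1.72 to -4.39 over the alternatives. LOC110119163 had 19.94, 21.55, 28.12 and 23.99 in the controls and 7.306, 0, 1.533, 1.296, 2.893 and 2.191 in egg removal. The 4 controls were close together and all above egg removal, and the log2 difference was -3.06 (SE 0.53). LOC100649943 had 125.6, 204.1, 90.26 and 30.12 in the controls and 20.1, 8.389, 3.08, 8.15, 11.62 and 14.45 in egg removal. It too kept the groups apart, with a log2 difference of -3.12 (SE 0.56), and it was not called without control replicate 1.

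Called genes with a mean of at least 10000 were a set chosen after their values were seen. Of these, 18 were higher with a median log2 difference of 1.78, and 8 were lower with differences from -0.65 to -3.60. The mean was that over the libraries compared, so a gene could enter through its higher group. Some higher genes had a control mean under 10000, such as LOC100648002 (2981) and LOC100649831 (3303), while all 8 lower genes had one above it. The split of 18 to 8 thus partly follows from this choice. The groups were apart for 7 of the 18 and 3 of the 8. After LOC100650436 the most abundant were LOC100642272 and LOC100649608. LOC100642272 had 3356, 21960, 28170 and 29560 in the controls and 52980, 127100, 294000, 117800, 22030 and 22080 in egg removal. Its egg removal replicates 5 and 6 lay within the control range, and the log2 difference was 2.14 (SE 0.62, adjusted p = 0.0492). LOC100651268 had 4487, 18090, 7918 and 22800 in the controls and 33490, 57820, 50580, 33430, 22950 and 27440 in egg removal. The groups were apart by a small margin, and the log2 difference was 1.70 (SE 0.37, adjusted p = 0.0187). On the lower side, LOC100647892 had means of 31376 ± 7525 (SD, n = 4) in control and 10509 ± 6518 (SD, n = 6) in egg removal, with the groups apart and a log2 difference of -1.79 (SE 0.40, adjusted p = 0.0203). LOC100642686 had means of 27438.5 ± 7195 (SD, n = 4) and 12413 ± 2834 (SD, n = 6), again with the groups apart and a log2 difference of -1.14 (SE 0.23, adjusted p = 0.012).

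Several genes with a high mean over the libraries compared differed between the groups without passing the test. A gene can reach such a mean through a few libraries of 1 group, so the directions below partly follow from this choice. A further 8 genes with a mean of at least 10000 had a log2 difference of at least 2 in size and were not called, 6 of them higher in egg removal. LOC100645190, 1 of the 9 fat-body-high genes, had 67.76, 203, 241.2 and 713.9 in the controls and 8551, 63100, 162800, 18370, 558.4 and 101.1 in egg removal. Egg removal replicates 1 to 4 were far above all controls, and replicates 5 and 6 were at control levels. Its control mean was 306, so it reached 10000 only through egg removal libraries. The limma adjusted p was 0.0593 for a log2 difference of 4.92 (SE 1.5). LOC100643149 had 1031, 67430, 4944 and 152200 in the controls and 57220, 492600, 653400, 69220, 87220 and 149000 in egg removal. Control replicates 1 and 3 were low and replicates 2 and 5 were within the egg removal range (log2 difference 3.4, SE 1.06, adjusted p = 0.0639). These genes were picked after their values were seen.

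Of the 5 genes with the highest mean, only LOC100650436 was called. LOC100652170 had 89090, 668200, 734700 and 316400 in the controls and 607700, 1642000, 5116000, 1780000, 309300 and 289500 in egg removal. Egg removal replicates 2, 3 and 4 were above all controls and the other 3 lay among them, with a log2 difference of 1.49 (SE 0.66, adjusted p = 0.165). For LOC100651168 the log2 difference was 1.24 (SE 0.47, adjusted p = 0.112), with controls from 120800 to 912300 and egg removal from 444400 to 1498000. LOC100642443 and LOC100651094 had differences of -0.38 (SE 0.67) and -0.03 (SE 0.47). In both, control replicate 2 was the highest library, at 3165000 and 2189000.

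Genes with a symbol were few, and Mpk was the called gene among them. It had 191.3, 647.8, 337.2 and 566.3 in the controls and 778.1, 1001, 1696, 927.4, 742.2 and 549.3 in egg removal. Egg removal replicate 6 lay among the controls, and the log2 difference was 1.18 (SE 0.28, adjusted p = 0.0245). The call was lost in 6 of the 20 alternatives, among them leaving out control replicate 1 or 3 or egg removal replicate 3. Kr-h1 encodes Krüppel homolog 1, a transcription factor induced by juvenile hormone. It had 661.7, 477.8, 893.4 and 1181 in the controls and 1092, 1169, 1457, 1173, 787 and 1112 in egg removal. The groups overlapped, and the log2 difference of 0.55 (SE 0.21) had an adjusted p of 0.113, or 0.0201 without control replicate 5.

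Def encodes defensin, an antimicrobial peptide. It had 453500, 1358000, 569900 and 92830 in the controls and 81970, 756500, 15900, 28980, 113000 and 69810 in egg removal. Control replicate 5 was far below the other controls, and egg removal replicate 2 was far above the rest of its group, so the groups overlapped. The log2 difference was -2.45 (SE 0.86, adjusted p = 0.0929), and the adjusted p was 0.0231 without control replicate 5. The feminizer gene fem, of the sex determination pathway, differed by 0.45 on the log2 scale (SE 0.31, adjusted p = 0.371), with 502.7 to 2127 in control and 1133 to 2326 in egg removal. VSP, a venom serine protease gene, had 35830, 119300, 26030 and 5205 in the controls and 3892 to 15890 in egg removal (log2 difference -1.70, SE 0.65, adjusted p = 0.117). The silk fibroin genes F1, F2 and F3 were at 17.93 normalized reads or less in all 10 libraries and were not called. Of the 15 gene lists drawn up, only those of the juvenile hormone pathway, antimicrobial peptides and sex determination had a member that could be identified, 1 each (Kr-h1, Def and fem), and 0 of the 3 were called.

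In the order of tested genes, a minority of called genes lay beside another gene called in the same direction. The order was that of the RefSeq table of assembly iyBomTerr1.2. Untested genes were left out of it, so they may lie between neighbours. Of the 235 higher genes with a place, 29 (12.3%) had a called higher gene as the next tested gene on a side, against 462 of all 9705 tested genes with a place (4.76%). For the lower genes it was 31 of 224 (13.8%), against 431 (4.44%). These made 29 runs of 2 or 3 genes, 14 higher and 15 lower. Neighbouring copies of a gene can share reads, and whether they did was not tested.

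In 5 of these runs every member had a log2 difference of at least 1.5 in size, a limit set after the values were seen. LOC100648982 lies beside LOC100649095 in the order of tested genes. It had 17.94, 32.62, 29.72 and 69.34 in the controls and 268.3, 188.9, 263.9, 332.2, 129.5 and 107.7 in egg removal, with the groups apart (log2 difference 2.55, SE 0.63). LOC100646677, beside LOC100647041, had 4678, 3455, 6159 and 1788 in the controls and 673.6, 800.7, 1028, 650.5, 1666 and 1550 in egg removal. Its groups were apart as well, unlike those of its neighbour, and the log2 difference was -1.89 (SE 0.46). LOC100645551 and LOC100648965 differed by 3.07 (SE 0.76) and 1.67 (SE 0.37), and LOC100649315 beside LOC100642272 by 1.67 (SE 0.39). The run of LOC100646017, LOC100648590 and LOC100648702 was lower, at low levels in every library (at most 23.92 in control and 3.886 in egg removal).

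The early libraries put these late levels beside those of younger queens. LOC100650436 ranged from 842764 to 5292530 in control TP1 and from 6277560 to 14522300 in egg removal TP1. Its late control libraries other than replicate 5 were thus below all 19 other fat body libraries. LOC100643262 ranged from 53.09 to 357.7 in control TP1 and from 3.144 to 16.16 in egg removal TP1, so late control replicates 1 to 3 were above every other library. LOC100644182 ranged from 1918 to 5342 and from 546.8 to 1298 at TP1. For LOC105666040 the early levels were 0 to 8.715 in control and 0 to 1.108 in egg removal, and late control replicates 1 to 3 were above all of these.

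Whether the late difference was unlike the early one was tested by the interaction term of the same fit, the TP2 difference minus the TP1 difference. It was called for 109 genes (1.05% of those tested) and for 2 of the 31 named genes. The named genes were chosen by their late difference, which is part of this term, so the count of 2 is a description. LOC110119460 had 159.1 to 481.3 in control TP1 and 111.3 to 284.5 in egg removal TP1, and its interaction was 4.05 (SE 0.72, adjusted p = 0.0265). LOC100652071 had 26.01 to 85.12 and 29.02 to 90.31 at TP1, and its interaction was 2.24 (SE 0.54, adjusted p = 0.0439). For both, the early groups overlapped, and the late controls were lower than any early library, except replicate 5 of LOC100652071. LOC100650436 (3.77, SE 1.13, adjusted p = 0.0825) and LOC105666040 (-3.16, SE 0.84, adjusted p = 0.0614) missed the threshold, and LOC100644182 had an interaction of -0.01 (SE 0.44). The number called among the 31 was 0 without control replicate 3 or egg removal replicate 1, 4 or 5, 1 without control replicate 1 or 2, 11 without control replicate 5 and 13 with weights per library.

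**Figure D4:**
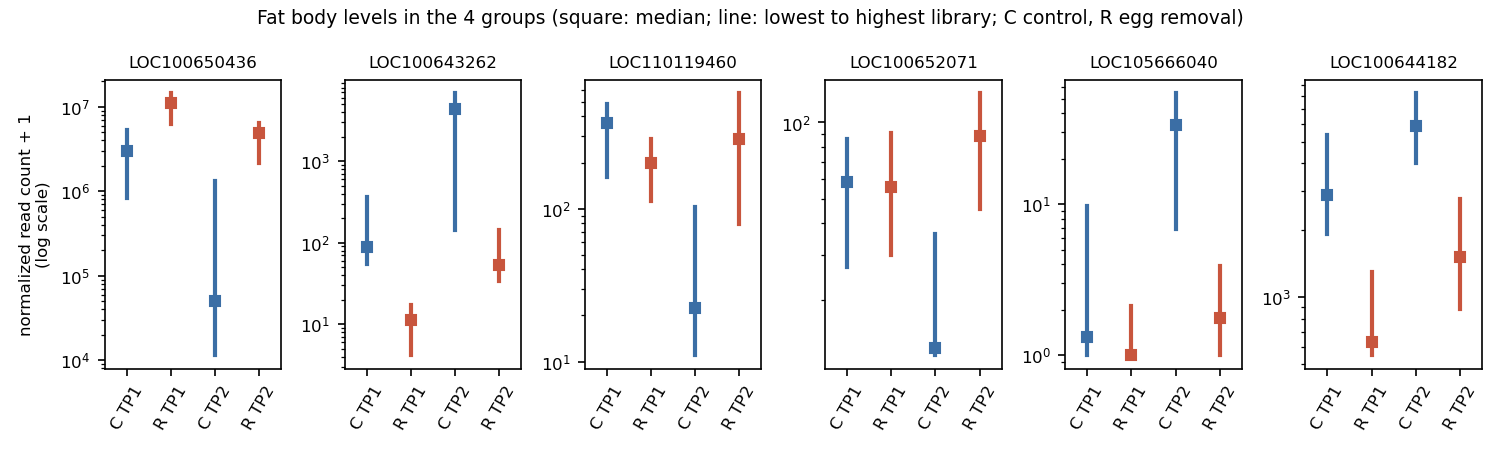
Squares are medians and lines run from the lowest to the highest library, on a log scale of normalized read count + 1, for 6 genes in control (blue, C) and egg removal (red, R) fat body at TP1 (6 libraries each) and TP2 (4 and 6). LOC100650436 and LOC110119460 were lowest in late controls, and LOC100643262 and LOC105666040 were highest there.

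The tissue in which the called genes had their highest level was also counted, without a test. Each gene was assigned to the tissue of its highest mean, using TP1 fat body libraries, so that no library of the comparison entered, against all brain and ovary libraries. The tables were normalized separately, so these levels are only roughly comparable. The fat body was the highest tissue for 88 of 238 higher genes (37%), 8 of 236 lower genes (3.39%) and 944 of 10204 genes tested (9.25%). For the lower genes the brain was highest in 38.6% and the ovary in 58.1%, against 31% and 59.8% over all genes. Over the alternatives the share of higher genes ranged from 22%, without control replicate 5, to 63.2%. It was 61.4% with libraries scaled to the same total and 22.8% with weights per library. These shares rest on unlike numbers of genes called higher, from 19 with weights per group to 979 with weights per library. No share was computed without control replicate 1, where 6 genes were called higher.

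The same contrast in the other tissues of old queens gave each gene a value from libraries that the fat body fit did not use. In the brain, 8.57% of genes tested were called, egg removal being higher for 3.68% and lower for 4.89%. Of the 240 genes higher in the fat body, 33 (13.8%) were also higher in the brain and 2 (0.833%) were lower. Of the 237 lower genes tested there, 52 (21.9%) were also lower and 0 were higher. These were 8.64% of the brain's higher and 10.2% of its lower calls. In the ovary, 58.9% of genes were called, 28.9% higher and 30% lower. Of the 237 lower fat body genes tested there, 149 (62.9%) were also lower in the ovary and 17 (7.17%) were higher, with a median log2 difference of -1.12 against -0.04 over all ovary genes. Of the 237 higher fat body genes tested there, 92 (38.8%) were also higher and 48 (20.3%) were lower. The 4 ovary sets were 4.78%, 0.566%, 3.06% and 1.54% of the ovary calls in their direction. The overlap between tissues was not tested.

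In all 3 tissues 37 genes were lower and 15 higher in egg removal, of 10175 tested in each. They were 15.5% of the lower and 6.25% of the higher fat body calls. The lower ones included LOC100643262, which differed by -2.83 (SE 0.63) in the brain and -4.60 (SE 0.77) in the ovary. LOC105666040 differed by -3.22 (SE 0.69) in the brain and -4.53 (SE 0.55) in the ovary, where its mean was 2689 in control and 128.1 in egg removal. LOC105667088 (-0.52 and -1.01) and LOC100647974 (-0.96 and -1.40) were lower in both as well. The higher ones included Mpk (0.65 in the brain and 0.88 in the ovary) and, chosen after its values were seen, LOC100649608, which differed by 2.57 in the fat body, 2.32 in the brain and 2.09 in the ovary.

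Other fat body differences did not extend to all tissues. Of the 24 called named genes, 6 were called in the same direction in the brain and 1 in the opposite direction, where 8.57% of all genes were called. In the ovary the numbers were 12 and 5, where 58.9% of all genes were called, so a call there says little about these genes. LOC100650436 differed by 5.64 (SE 1.18, adjusted p = 0.00681) in the brain, with means of 3105 in control and 146155 in egg removal, and by 0.44 (SE 0.91, adjusted p = 0.69) in the ovary. LOC100649095 was lower in egg removal in the brain (-1.21, SE 0.30, adjusted p = 0.0158) and in the ovary (-2.47, SE 0.39, adjusted p = 5.66e-05). Its levels there were low, with means of 52.7 in control and 23.0 in egg removal in the brain, and 12.7 and 1.37 in the ovary. LOC100647937 was lower in the ovary (-2.07, SE 0.42, adjusted p = 0.000383) and had -0.36 (SE 0.18) in the brain. LOC100650982 and LOC100649943, lower in the fat body, were higher in the ovary by 1.89 (SE 0.44) and 1.96 (SE 0.82). Kr-h1 had 0.62 (SE 0.18, adjusted p = 0.0403) in the brain. Def had -4.31 (SE 1.19, adjusted p = 0.00419) in the ovary. Differences between tissues were not tested.

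**Figure D5:**
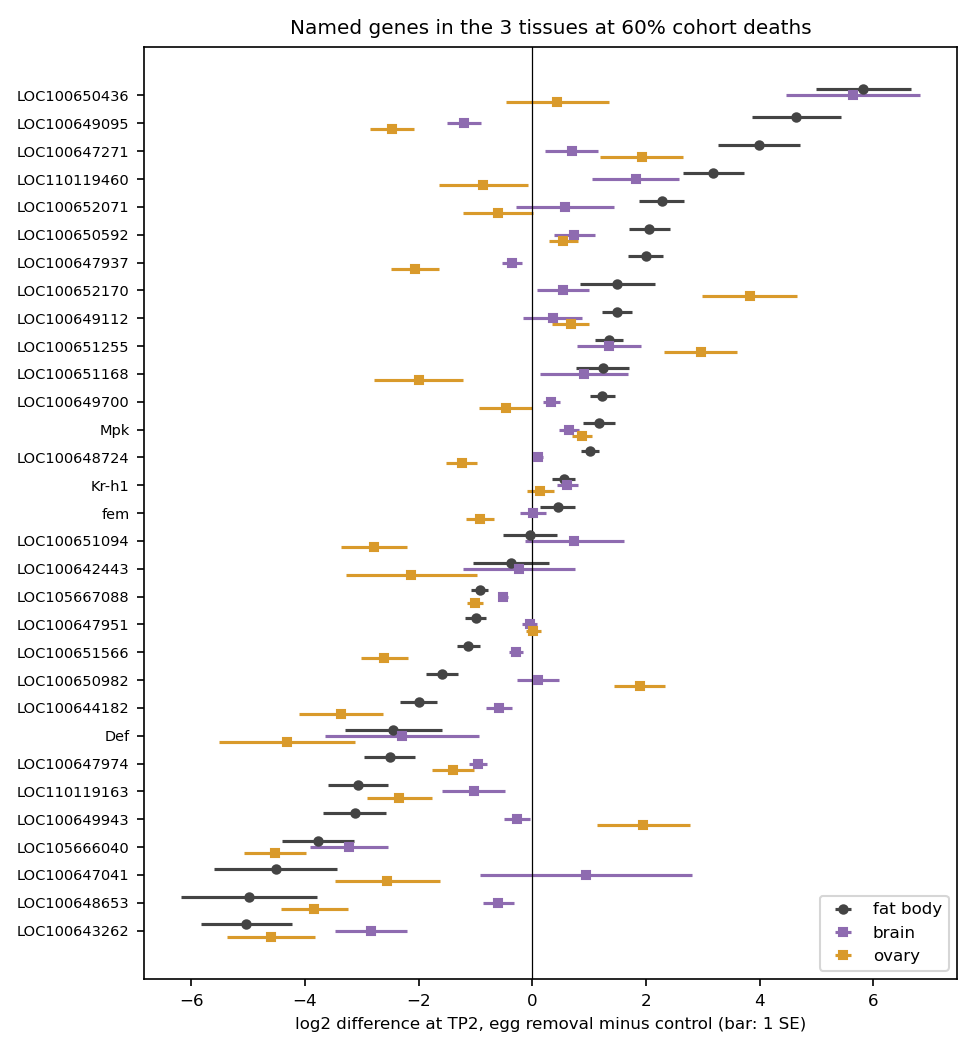
Points are log2 differences, egg removal minus control at TP2, of the 31 named genes in the fat body (black circles), brain (purple squares) and ovary (orange squares), with bars of 1 SE, ordered by the fat body value. LOC100650436 lies at 5.82, 5.64 and 0.44 in the 3 tissues. LOC100649095, at low levels in the brain and ovary, lies on opposite sides of 0 in the fat body and these tissues.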

How the data were processed

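The deposited table gives a signal per gene and library, normalized by the authors: scaling each column by its median ratio to the genes' geometric means leaves it unchanged, so values are read counts scaled by medians of ratios within the tissue. Per the submitters' processing notes, kallisto 0.46.1, R 4.0.1 and DESeq2 1.28.1 were used. Per the labels' protocols, libraries were stranded mRNA-seq and run on more than 1 lane. The sources used here do not give the genome build, annotation, strand setting or gene filter. Genes sharing reads with near-identical copies could not be identified, so every value carries that uncertainty.

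All 22 fat body libraries were fitted as 4 group means with limma 3.58.1 (trend, robust; statmod 1.5.0; R 4.3.3) on log2(value + 1). Of 10432 genes, the 10383 with a mean of at least 1 in a group were tested, with Benjamini-Hochberg adjustment over all of them. Fold changes of low genes are understated on this scale. Genes near the adjusted p limit of 0.05 included LOC100644711 (0.0497, inside) and LOC100646909 (0.0502, outside). Brain and ovary were fitted likewise, each within its own table. Depth was estimated as a library's total divided by its lowest cluster of positive values, which is approximate, and no counting interval per gene was computed.

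The named genes were chosen by 5 rules. Taken were the 10 called with the smallest p in each direction, and the 3 largest differences in each direction with a mean of at least 100 in a group. Added to these were the 5 with the highest mean over the 10 late libraries, called genes with a symbol, and list members identified by symbol. The comparison, the rule and the lists were chosen with earlier results of these data known. Alternatives covered the pseudocount, low-value filter, scaling, weights, the replicate block, the 10 libraries alone and each library left out.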

Additional observations from a re-analysis of the deposited data

Results flagged for a closer look

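Of 62 groups examined (31 named genes in both treatments), 9 held a library far from the others of its group on the scale of the deposited values. Chance gives about 1 in 20 only for normally distributed values. On the log2 scale of the fit, chosen after the data were seen, 1 of the 9 still stood apart, LOC100652071 in control replicate 5, and no other of the 62 groups did. In the controls, replicate 5 was the high library for LOC100650436 (1335000, nearest 70360), LOC100649095 (135.3, nearest 15.94) and LOC100652071 (35.31, nearest 11.96), 3 genes whose other controls were far below egg removal. Replicate 3 was high for LOC100648653 (3691, nearest 569.6). Replicate 2 was high for LOC100642443 (3165000, nearest 430900) and LOC100651094 (2189000, nearest 474800), and this library also stood apart on the second principal component. In egg removal, replicate 3 was high for LOC100647271 (3690, nearest 1034) and LOC100652170 (5116000, nearest 1780000), and it lay at the end of the first component. Replicate 2 was high for Def (756500, nearest 113000).

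The interaction term, late minus early difference, was called in limma for LOC110119460 (4.05, adjusted p = 0.0265) and LOC100652071 (2.24, adjusted p = 0.0439). Both were chosen by the late difference, which is part of the term. No interaction of a named gene was called without control replicate 3 or without egg removal replicate 1, 4 or 5, each left out alone, and 1 was called with the replicate block.

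In the fat body LOC100649095 was higher with egg removal, but it was lower in the brain (-1.21) and the ovary (-2.47). Its group means there were low, at most 52.7 in the brain and 12.7 in the ovary at TP2. LOC100647937, higher in the fat body, was lower in the ovary (-2.07). In these cases all egg removal libraries lay on opposite sides of the controls in the tissues, and the difference between tissues was not tested.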

How the results depend on the processing

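The count of 478 called genes was within 1.5 times under a pseudocount of 0.5 (450) or 10 (588), no filter (479) and a minimum mean of 20 (489). The count was also within 1.5 times with scaling to the same total (375), but with 72 higher, 303 lower and 281 of the 478 shared. It was 0 with the 10 libraries alone, 177 when scaled to the same total without LOC100650436, 1932 with weights per library (979 higher and 953 lower, with 453 of the 478 shared), 32 with weights per group and 295 with a log2 difference of at least 1 in size. Without single libraries it ran from 12 to 1373. The cause was not tested. Depth was lowest in control replicate 1 (12.1 M reads), whose removal gave 12.

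Pairing by replicate number was not apparent: the 4 correlations of same-numbered late libraries were 0.14, 0.0936, -0.197 and -0.161. With 4 pairs, whether same-numbered samples shared anything could not be settled. The replicate block gave 255 calls (107 higher and 148 lower, 235 of them shared), and none of the 4 controls correlated best with the egg removal library of its own number.

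The log2 difference of LOC100650436 kept its direction throughout, from 4.91 to 7.20 without single libraries. No direction of the 24 called named genes turned. For genes whose groups were apart, LOC100650436 among them, leaving out 1 library could not turn the direction. Beside the 24 calls lost with the 10 libraries alone and 14 without control replicate 1, weights per group lost 4, the block 2 and the 2 scalings 1 and 2. The number of named genes with a called interaction was 2, and 6 when scaled to the same total, 13 with weights per library, 1 with the replicate block and 0 to 11 without single libraries. In the brain 8 named genes were called, and 5 when scaled to the same total; in the ovary 22 were called.

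The shares of called genes by tissue were recomputed in alternatives added after the data were seen. Of the genes called lower, 53.2% to 72.6% were also lower in the ovary and 16.6% to 38.5% in the brain. These shares rest on unlike numbers of genes called lower, from 13 with weights per group to 953 with weights per library. No share was computed without control replicate 1, where 6 genes were called lower.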
